A study of Mus musculus with 18 samples.

Results

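Collagens are the main structural proteins of the extracellular matrix, and each collagen molecule is a triple helix of alpha chains, each chain the product of its own gene. The genes described here are the mouse collagen chain genes, chosen by symbol alone as every protein-coding gene named Col, a number, a and a number. There are 44 of them among the 55487 genes of each count file. Of these, 30 passed the filter on low counts and were tested, and 14 were not.

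The chains fall into classes by the structure they build. Fibrillar collagens (types I, II, III, V, XI, XXIV and XXVII) assemble into the cable-like fibrils of connective tissue, and FACITs (fibril-associated collagens with interrupted triple helices, such as types XII and XIV) sit on the surface of those fibrils. Type IV collagen forms the sheet of basement membranes, types VIII and X form hexagonal networks, type VI forms beaded microfilaments, and multiplexins such as type XVIII lie in basement membrane zones. In tumours most fibrillar collagen is laid down by stromal fibroblasts, and carcinoma cells of epithelial type usually make little of it.

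RNA was sequenced from the mouse adenocarcinoma cell line T23 in 6 culture conditions with 3 libraries each, 18 libraries in all, in a study on stromal SPARC and prostate cancer. SPARC is a secreted matrix protein that binds collagen. The first group was T23 cells grown alone. A second was co-cultured with wild type fibroblasts and a further group with SPARC-deficient fibroblasts (Fibro SparcKO). Another group was T23 cells given enzalutamide (ENZA), a drug used against prostate cancer. The remaining groups were co-cultured with fibroblasts under enzalutamide, with no other agent or together with isoliquiritigenin (ISO), a chalcone found in liquorice root. Doses and exposure times were not given in the sources used here, and neither was whether the fibroblasts were removed before RNA was taken. The labels call the fibroblasts of both enzalutamide co-cultures human, while their titles carry the same fibroblast name, FIBROB6, as the wild type co-culture. The index that ends the titles starts again within the fibroblast and enzalutamide group, so that its replicates 2 and 3 and all 3 isoliquiritigenin libraries belong to a second numbering series. Nothing says whether the replicates were separate cultures, so the p-values measure only the spread between these libraries.

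The libraries held 16103541 to 26713475 counts over 18123 to 20154 detected genes. Replicate 2 of the enzalutamide group stood apart, since a single ribosomal RNA gene took 26.4% of its counts, against 0.0391% to 0.138% elsewhere. The mitochondrial share of counts was 0.824% to 1.68% in the 9 libraries without enzalutamide and 1.55% to 4.06% in the 9 with it. Sparc itself read 2584 to 3205 CPM (counts scaled to the size of the library, with that size adjusted by TMM) in every library, the SPARC-deficient co-cultures included, where it differed from the wild type co-cultures by -0.02 ± 0.05 (SE) on the log2 scale with an adjusted p of 0.864 in edgeR's quasi-likelihood test. Of 9 markers of prostate luminal epithelium, 3 averaged 1 CPM or more in every group. Others were near or at 0 in all 18 libraries, of which 3 are named after their values were seen, with Pbsn at 0, Krt8 at no more than 0.521 CPM and Epcam at no more than 0.314 CPM. Of 12 fibroblast markers that are not collagens, 10 averaged 10 CPM or more in each of the 6 groups, T23 cells alone included, with Pdgfra at 1030 to 1410 CPM and Vim at 1890 to 4460 CPM over the libraries. Summed over their lists, 6 smooth muscle markers read 346 to 642 CPM, 8 cartilage and bone markers 140 to 173 CPM, 4 basal epithelial markers at most 8.1 CPM, 5 endothelial markers at most 7.5 CPM, 6 blood cell markers at most 7.92 CPM and 6 neuroendocrine markers at most 0.247 CPM, with Chga, Insm1 and Neurod1 at 0 in every library. Nearly all of the smooth muscle sum was Acta2, at 339 to 635 CPM, and the next highest marker of that list, Cnn1, reached no more than 5.77 CPM. In these bulk libraries fewer cells of a type and less RNA per cell cannot be told apart.

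T23 cells grown alone carried large amounts of fibrillar collagen RNA. The 44 genes together took 3.79% ± 0.07 (SD, n = 3) of all counts in T23 cells alone, and fibrillar chains made up 3.09% ± 0.07 (SD, n = 3). Over the 18 libraries, Col1a1 alone held 28.3% of all collagen chain counts, Col1a2 26.6% and Col3a1 14.5%, and these 3 genes summed to 69.4%. Col1a1 and Col1a2 encode the chains of type I collagen, the bulk protein of skin, tendon and bone, and Col3a1 encodes the only chain of type III collagen, which accompanies it in soft tissue.

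**Figure D1:**
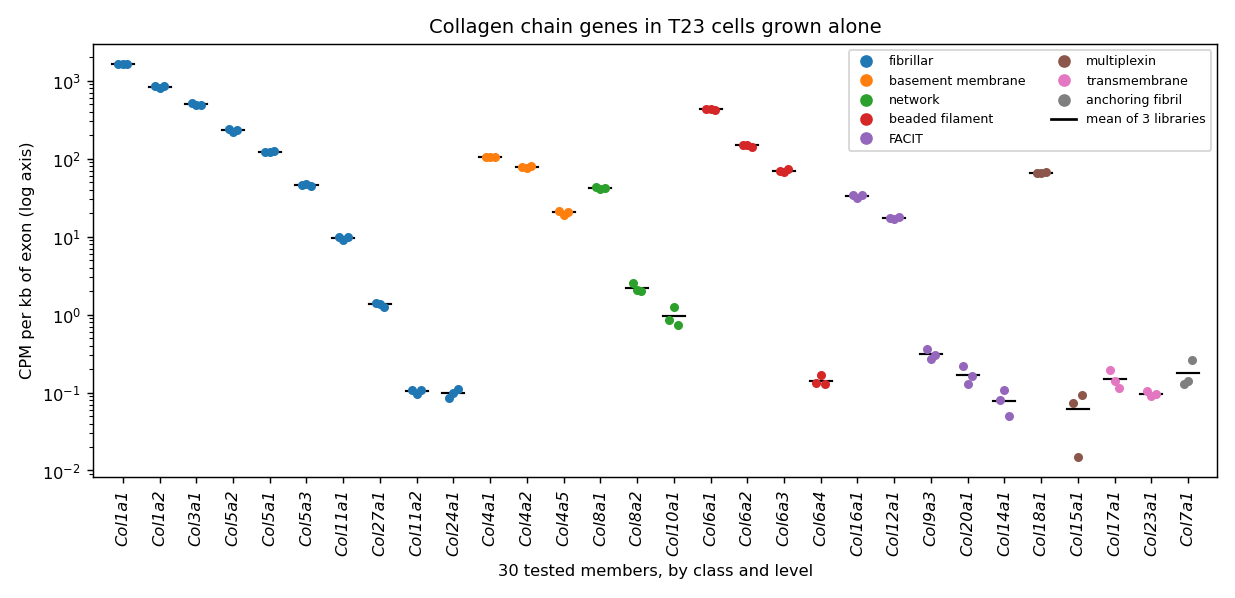
Level of collagen chain genes in T23 cells grown alone, in CPM per kilobase of exon on a log axis, for the 30 tested genes, with 1 point per library, a line at the mean (n = 3) and the genes grouped and coloured by class and ordered by level within it. Col1a1, Col1a2 and Col3a1 stand at the left at 1643, 835.7 and 500.6, and every class but the anchoring fibril and transmembrane ones has a member above 40 or, for FACITs, at 33.5.

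Compared per length of exon, the level in T23 cells alone ran from Col1a1 at 1643 ± 19.9 CPM per kb (SD, n = 3) through Col1a2 at 835.7 ± 27.8 and Col3a1 at 500.6 ± 12.8 to Col6a1, a type VI chain, at 433 ± 6.71. Next came Col5a2 at 233, Col6a2 at 148, Col5a1 at 123, Col4a1 at 106, Col4a2 at 77.9, Col6a3 at 70.0 and Col18a1 at 66.2 CPM per kb. Down to Col8a2, in the 18th place at 2.2 CPM per kb, the libraries of each gene were clear of those of the next. Col27a1 and Col10a1 behind it overlapped, as did most neighbours below Col9a3. The order depends on the length used. Per kb of the longest transcript Col1a2 stood at 1942 and Col1a1 at 1818, because the annotated exons of Col1a2 together span 12426 bases against 5348 in its longest transcript. Further down, Col18a1 then ranked 9 rather than 11 and Col4a2 ranked 11 rather than 9. Col5a3 and Col8a1, Col4a5 and Col12a1, and Col8a2 and Col27a1 also changed places. Col1a1 lies at chr11:94936224-94953042 and Col1a2 at chr6:4504814-4541544 (GRCm38, GENCODE M21), both on the plus strand.

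Chains that share a molecule were not at equal RNA levels. Most type IV collagen holds more Col4a1 than Col4a2 product, and the ratio of Col4a1 to Col4a2 RNA per kb of exon was 1.36 ± 0.0365 (SD, n = 3) in T23 cells alone. That ratio was 1.44 ± 0.00972 in the wild type and 1.24 ± 0.0253 in the SPARC-deficient co-cultures, 1.41 ± 0.0222 under enzalutamide, 1.42 ± 0.0299 with fibroblasts and enzalutamide and 1.21 ± 0.0248 once isoliquiritigenin was added. The SPARC-deficient and isoliquiritigenin libraries, at 1.18 to 1.26, lay below every library of the other groups, the lowest of which was 1.32. For type VIII collagen the imbalance was larger, since Col8a1 per kb was 19.3 ± 2.04 times Col8a2 in T23 cells alone and 53.6 ± 12.3 times with SPARC-deficient fibroblasts. Within type VI, Col6a3 stood at 0.162 ± 0.0105 of Col6a1 per kb in T23 cells alone and at 0.113 ± 0.00641 with isoliquiritigenin. The Col1a1 to Col1a2 ratio per kb of exon lay between 1.79 and 2.27 in the 18 libraries, and per kb of the longest transcript between 0.852 and 1.08. These ratios are descriptions with no test.

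The 14 untested genes were Col13a1, Col19a1, Col22a1, Col25a1, Col26a1, Col28a1, Col2a1, Col4a3, Col4a4, Col4a6, Col6a5, Col6a6, Col9a1 and Col9a2. Of these, 11 stayed under 10 counts in every library, while Col9a2 reached 10, Col4a4 reached 11 and Col6a5 reached 13. None was at 0 in all 18 libraries, and a count of 0 allows up to 0.112 to 0.186 CPM at these depths. Col2a1, the chain of cartilage fibrils, held 40 counts in all, and Col9a1, Col13a1 and Col26a1 held 1, 2 and 2. The markers Ibsp and Matn1 of bone and cartilage were at 0 in all 6 groups, although Sox9 read 59.0 to 96.9 CPM and Runx2 73.1 to 93.4 CPM. By class, the tested members were 10 of 11 fibrillar, 3 of 6 basement membrane, 3 of 3 network, 4 of 6 beaded filament, 5 of 9 FACIT, 2 of 2 multiplexin, 2 of 4 transmembrane, the anchoring fibril gene Col7a1, and none of the 2 others.

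**Figure D2:**
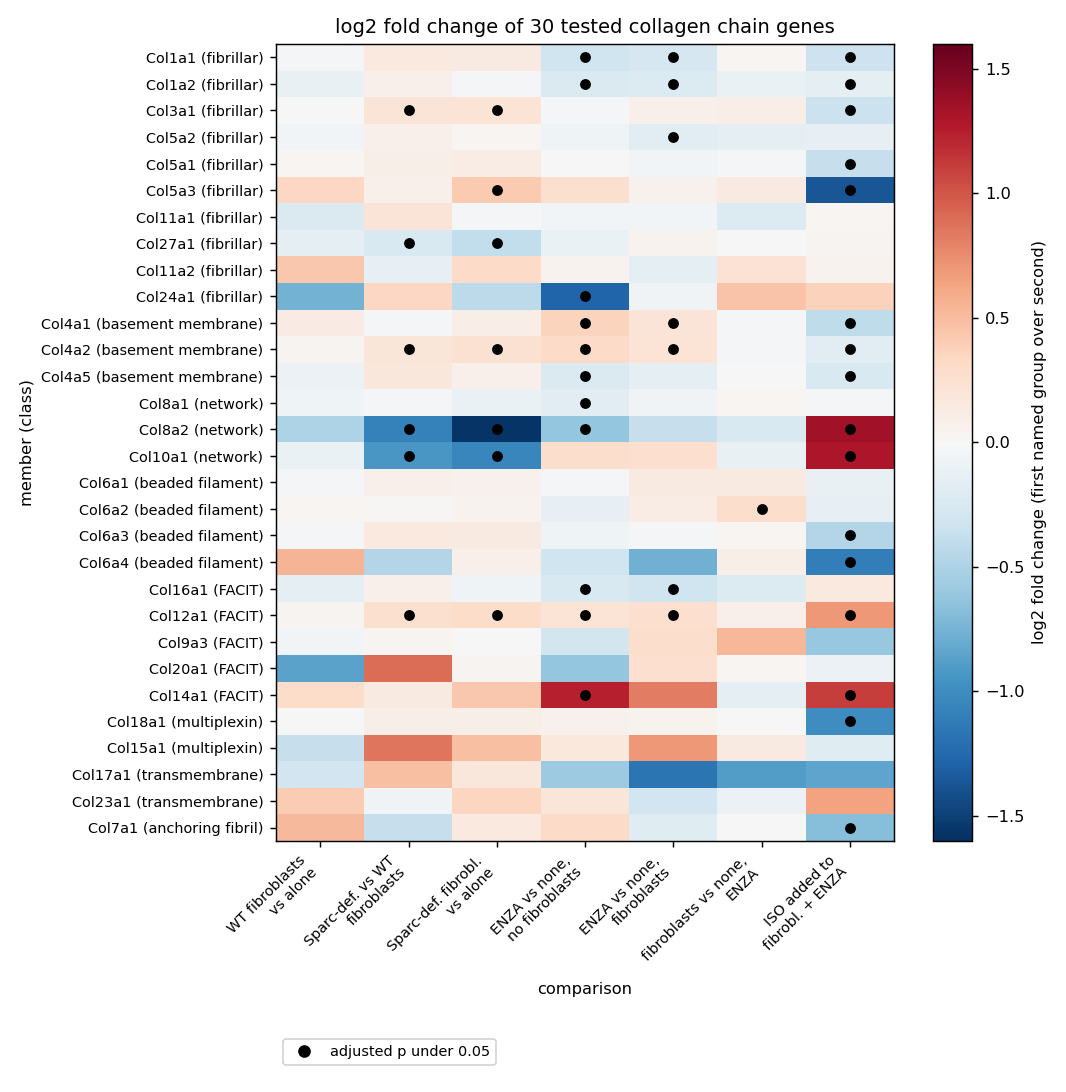
Log2 fold change of the 30 tested collagen chain genes (rows, with their class) in each of 7 comparisons (columns), as colour, with a dot where edgeR's adjusted p was under 0.05. The isoliquiritigenin column has the most dots, 16 of 30, and the column of wild type fibroblasts against T23 cells alone has 0.

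Across the 6 groups, 22 of the 30 tested members differed somewhere by edgeR's quasi-likelihood test at an adjusted p under 0.05, where 54.3% of all 13600 tested genes did. The smallest adjusted p was that of Col12a1, a FACIT chain, at 5.36e-12. Among those that did not pass was Col6a1, whose lowest and highest libraries, 1735 and 2087 CPM, differed by 1.2 times (adjusted p = 0.0799). In the same libraries Col10a1 spanned 9.85 times, Col8a2 5.60 times and Col5a3 4.03 times. The comparisons below share control groups with each other.

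Co-culture with wild type fibroblasts moved none of the collagen chain genes past the threshold. Of the 30 members, 0 rose and 0 fell against T23 cells alone by edgeR's quasi-likelihood test, where 0.257% of all genes rose and 0.257% fell. At an unadjusted p under 0.05 there were 9 members (and 10.4% of all genes), and DESeq2 called 1. The median log2 change was -0.02 over the members and 0.00 over all genes. Col1a1 differed by -0.02 ± 0.05 (SE), Col1a2 by -0.11 ± 0.05, Col3a1 by 0.01 ± 0.05, Col4a1 by 0.13 ± 0.06, Col4a2 by 0.05 ± 0.06 and Col6a1 by -0.01 ± 0.05 on the log2 scale, with adjusted p from 0.424 to 0.968. Col8a2 differed by -0.49 ± 0.13 (adjusted p = 0.0972). With no filter on low counts 3 members passed instead of 0, and so did 3 when the fit held these 2 groups alone. In both settings they were Col5a3 (log2 0.33), Col8a2 and Col11a1 (log2 -0.23), and DESeq2 called Col8a2. The shares of all genes called in these settings are not given here.

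SPARC-deficient in place of wild type fibroblasts changed members of 4 classes. Of the 30 members, 3 rose and 3 fell by edgeR's quasi-likelihood test, where 6.72% of all genes rose and 4.79% fell. Col3a1, Col12a1 and Col4a2 were higher, and the network chains Col8a2 and Col10a1 and the fibrillar chain Col27a1 were lower. The median log2 difference was 0.09 over the 30 members, 21 of them above 0, and -0.01 over all genes.

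Col3a1 (chr1:45311538-45349706, plus strand) read 5029, 5062 and 4757 CPM with wild type fibroblasts and 5710, 5717 and 5722 CPM with SPARC-deficient fibroblasts. All 3 SPARC-deficient libraries were above all 15 others, the highest of which was 5366 CPM. The log2 difference was 0.21 ± 0.05 (SE), an adjusted p of 0.00387. Col12a1 (chr9:79598991-79718831, minus strand), a large FACIT that decorates type I fibrils, read 279.9, 271.6 and 260.5 CPM with wild type and 296.4, 325 and 348.5 CPM with SPARC-deficient fibroblasts. The 3 libraries of each group did not overlap, and the log2 difference was 0.26 ± 0.06 (adjusted p = 0.00469). Col4a2 rose by 0.19 ± 0.06 (adjusted p = 0.0463) while its partner Col4a1 differed by -0.03 ± 0.06 (adjusted p = 0.836). Col1a1 read 11100, 10740 and 10160 CPM with wild type and 11640, 12210 and 11960 CPM with SPARC-deficient fibroblasts, which did not overlap. In the main fit its log2 difference of 0.16 ± 0.05 missed the threshold (adjusted p = 0.0506). Col1a1 passed in 6 alternative settings, with adjusted p from 0.016 to 0.0488. Among them were DESeq2 (0.0218) and the edgeR fit without enzalutamide replicate 2 (0.016). Col1a2 differed by 0.08 ± 0.05 (adjusted p = 0.338) and Col6a1 by 0.09 ± 0.05 (adjusted p = 0.303).

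The network chains Col8a2 and Col10a1 had the largest changes of the tested members in this comparison. Col8a2 (chr4:126286793-126314330, plus strand) encodes a type VIII chain known from the membrane under the corneal endothelium and from vessel walls. It read 11.5, 9.19 and 9.03 CPM in T23 cells alone, 7.44, 6.56 and 7.23 CPM with wild type fibroblasts and 3.65, 3.64 and 2.76 CPM with SPARC-deficient fibroblasts. These 3 groups formed 3 separate levels with no overlap. The log2 difference between SPARC-deficient and wild type co-cultures was -1.08 ± 0.15 (SE), a 2.11-fold lower level (adjusted p = 3.09e-05), and that between wild type co-culture and T23 cells alone was -0.49 ± 0.13 (adjusted p = 0.0972). Col10a1 (chr10:34389981-34397085, plus strand), the type X chain known as a product of hypertrophic cartilage, read 3.18, 3.22 and 1.82 CPM with wild type and 1.64, 0.984 and 1.66 CPM with SPARC-deficient fibroblasts. The groups did not overlap although wild type replicate 3 lay close to the SPARC-deficient libraries, and the log2 difference was -0.94 ± 0.27 (adjusted p = 0.0263). Col27a1, a fibrillar chain of cartilage, read 15.6, 17.0 and 14.9 CPM against 13.2, 13.3 and 13.7 CPM, a difference of -0.24 ± 0.08 (adjusted p = 0.044). The network partner Col8a1, which is far more abundant, was not called and read 303.2 to 320 CPM with wild type and 284.9 to 325.8 CPM with SPARC-deficient fibroblasts. Col6a5, too low to be tested in the main fit, held 10 to 13 counts a library with SPARC-deficient and 0 to 5 with wild type fibroblasts. In edgeR fits it was called without wild type replicate 1 (log2 3.37, adjusted p 0.0268) and without enzalutamide replicate 2 (log2 2.17, adjusted p 0.0352).

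Of these 6 calls, Col3a1, Col12a1 and Col8a2 passed under all 13 alternatives tried. Col10a1 no longer passed without wild type replicate 1 or 2 or SPARC-deficient replicate 2 (adjusted p 0.105 to 0.151), Col4a2 was lost under 6 of 13 alternatives, among them without wild type replicate 1 or 3 or SPARC-deficient replicate 2 or 3 (adjusted p 0.0514 to 0.216), and Col27a1 under 8 of 13, among them without wild type replicate 1 or 2 or each SPARC-deficient replicate (adjusted p 0.0663 to 0.25). The count was 3 without SPARC-deficient replicate 2 and 11 without enzalutamide replicate 2. The summed fibroblast markers read 16900 to 18100 CPM with SPARC-deficient and 16200 to 16900 CPM with wild type fibroblasts, 1 of 11 tested rising and 3 falling. Most of that sum was Fn1, at a mean of 10500 against 9550 CPM, and Vim, at 4190 against 4010 CPM. Smooth muscle markers, nearly all Acta2, summed to 375 to 447 against 467 to 547 CPM (1 of 5 tested fell). Endothelial markers summed to 4.09 to 4.47 against 5.21 to 6.35 CPM (1 of 3 fell) and basal epithelial markers to 6.56 to 8.1 against 2.91 to 4.2 CPM (1 of 2 rose). Of 4 tested luminal markers 2 rose and 1 fell. The part of any of these in the result was not tested.

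Against T23 cells alone, the SPARC-deficient co-cultures differed in the same members plus Col5a3, a comparison that shares its SPARC-deficient libraries with the one above. Over the members, 4 of 30 rose and 3 fell by edgeR, where 6.1% of all genes rose and 3.65% fell. Col8a2 fell by 1.57 on the log2 scale (SE 0.14, adjusted p = 6.38e-08), Col10a1 by 1.04 (SE 0.27, adjusted p = 0.0137) and Col27a1 by 0.39 (SE 0.08, adjusted p = 0.00146). Col3a1 rose by 0.22 ± 0.05 (adjusted p = 0.0029), Col12a1 by 0.30 ± 0.06 (adjusted p = 0.00134), Col4a2 by 0.24 ± 0.06 (adjusted p = 0.014) and Col5a3 by 0.42 ± 0.11 (adjusted p = 0.0215). Col1a1 differed by 0.15 ± 0.05, Col1a2 by -0.03 ± 0.05, Col4a1 by 0.11 ± 0.06 and Col6a1 by 0.07 ± 0.05, with adjusted p from 0.0912 to 0.763. The calls of Col10a1 without T23 alone replicate 2 or SPARC-deficient replicate 2 (adjusted p 0.119 and 0.087), of Col4a2 without T23 alone replicate 1 or 2 or SPARC-deficient replicate 2 (0.0575 to 0.0906) and of Col5a3 without any T23 alone replicate or SPARC-deficient replicate 1 (0.0607 to 0.0951) did not hold.

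**Figure D3:**
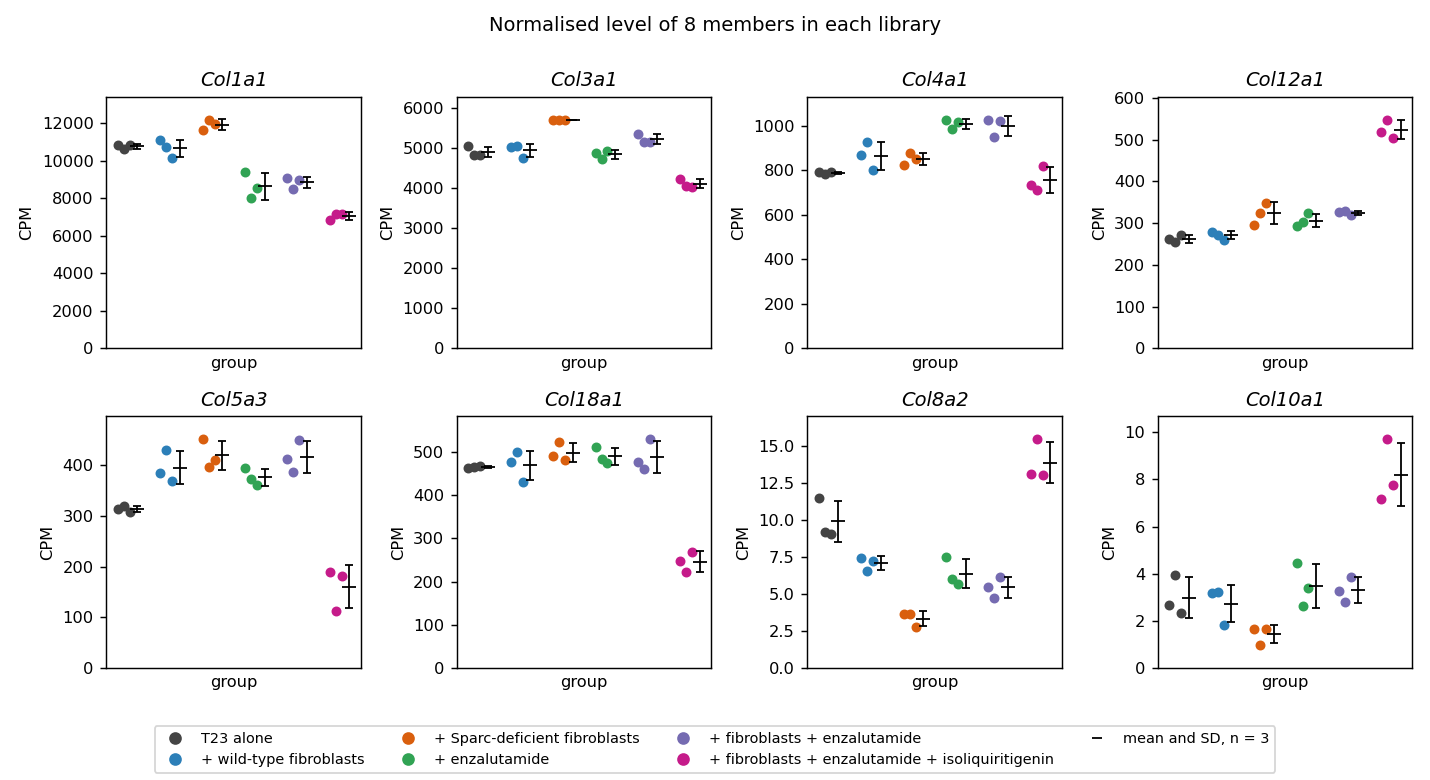
Normalised level in CPM, on axes that start at 0, of 8 collagen chain genes in each of the 18 libraries, with 1 point per library, the mean and SD of each group beside its points (n = 3) and the groups in the order of the legend. Col8a2 is lowest with SPARC-deficient fibroblasts, at 2.76 to 3.65, and highest with isoliquiritigenin, at 13.1 to 15.4, and Col18a1 is at 221.1 to 268.9 with isoliquiritigenin against at least 430.6 elsewhere.

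Since Col10a1, Col8a2 and Col5a3 had the widest range among the members with at least 10 counts in every library, the 250 bases before their annotated starts are shown, 5′ to 3′ on the gene's strand (RefSeq, GRCm38.p6). Capitals mark, on either strand, a TATA box, searched as TATAAA. They also mark a CCAAT box, searched by the letters of its name. The last motif searched was the GC box, GGGCGG. The windows are chr4:126286544-126286793 (plus), chr10:34389731-34389980 (plus) and chr9:20815068-20815317 (minus).
Col8a2: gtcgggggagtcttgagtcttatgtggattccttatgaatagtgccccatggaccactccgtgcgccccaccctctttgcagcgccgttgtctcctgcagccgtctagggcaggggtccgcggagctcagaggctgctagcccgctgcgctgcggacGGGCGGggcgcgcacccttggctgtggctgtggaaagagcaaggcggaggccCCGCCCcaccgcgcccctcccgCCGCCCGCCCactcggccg
Col10a1: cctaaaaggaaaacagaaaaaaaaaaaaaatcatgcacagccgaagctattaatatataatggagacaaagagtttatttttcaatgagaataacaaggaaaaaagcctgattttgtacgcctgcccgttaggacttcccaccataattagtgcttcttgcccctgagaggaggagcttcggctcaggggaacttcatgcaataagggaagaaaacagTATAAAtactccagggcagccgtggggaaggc
Col5a3: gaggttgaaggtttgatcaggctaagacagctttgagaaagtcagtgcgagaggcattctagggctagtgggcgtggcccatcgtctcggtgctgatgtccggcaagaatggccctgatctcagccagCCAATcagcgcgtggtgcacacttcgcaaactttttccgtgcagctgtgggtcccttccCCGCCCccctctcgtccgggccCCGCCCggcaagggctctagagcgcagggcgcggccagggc

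The 3 windows differ in composition. That of Col8a2 is 70% G and C and holds 4 GC boxes, of which the 2 nearest the start overlap, and the Col5a3 window is 62.8% G and C with 2 GC boxes and a CCAAT box. The Col10a1 window is 41.6% G and C and has a TATA box 32 to 27 bases before the start. Of the 44 genes, 35 matched a window in the table, where the median content of G and C over these 250 bases was 59% against 52.4% over all 32851 windows. A TATA box was found in 5 of the 35 genes and in 12.4% of all windows. For a CCAAT box these were 13 genes and 33.8%, and for a GC box 21 genes and 32.7%. The units are unlike, since a gene was counted if any of its windows held the motif. A match is a description of the letters, not a binding site.

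Enzalutamide without fibroblasts went with less type I and more type IV collagen RNA. Of the 30 members 4 rose and 7 fell against T23 cells alone by edgeR, where 6.84% of all genes rose and 5.19% fell. Among the basement membrane chains 2 of 3 tested rose and 1 fell, and among the fibrillar chains 0 of 10 rose and 3 fell. The median log2 change was -0.06 over the members and 0.00 over all genes.

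Col1a1 read 10860, 10630 and 10860 CPM in T23 cells alone and 9413, 7996 and 8530 CPM under enzalutamide. The groups did not overlap, and the log2 change was -0.32 ± 0.05 (SE, adjusted p = 0.000325). Col1a2 fell with it, by 0.23 (SE 0.05, adjusted p = 0.00328), from 9989 to 10630 CPM down to 8408 to 9397 CPM. Col3a1 differed by -0.02 ± 0.05 (adjusted p = 0.841), and the ratio of Col3a1 to Col1a1 per kb of exon was 0.376 ± 0.0261 under enzalutamide against 0.305 ± 0.00655 in T23 cells alone. Col24a1, a rare fibrillar chain, fell by 1.28 (SE 0.39, adjusted p = 0.0354) on 3 to 17 counts per library.

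Col4a1 read 789.7, 783.8 and 791.1 CPM in T23 cells alone and 1023, 982.8 and 1018 CPM under enzalutamide, and Col4a2 went from 513.4, 501.1 and 533.2 to 655.1, 609.7 and 643 CPM. For both genes every enzalutamide library was above every library of T23 cells alone. The log2 changes were 0.35 ± 0.06 (adjusted p = 0.000335) and 0.30 ± 0.06 (adjusted p = 0.00222). These genes lie head to head, Col4a1 at chr8:11198423-11312826 on the minus strand and Col4a2 at chr8:11312805-11449287 on the plus strand, and their annotated exons share 22 bases, chr8:11312805-11312826. The library kit keeps strand, but whether the counting used it was not given in the sources used here. Col4a5, a basement membrane chain of kidney and other tissues, fell by 0.23 (SE 0.06, adjusted p = 0.0154).

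The remaining calls under enzalutamide were in FACIT and network chains. Col12a1 rose by 0.22 ± 0.06 (adjusted p = 0.0143). Col14a1, a FACIT of mature fibrils, read 0.558, 0.754 and 0.345 CPM in T23 cells alone and 0.98, 1.45 and 1.6 CPM under enzalutamide, 7 to 36 counts a library, a change of 1.25 ± 0.36 (adjusted p = 0.0231). Col8a2 fell by 0.62 (SE 0.13, adjusted p = 0.00336), from 9.03 to 11.5 CPM down to 5.69 to 7.48 CPM with no overlap. Col8a1 fell by 0.17 (SE 0.05, adjusted p = 0.0392) and the FACIT Col16a1 by 0.24 (SE 0.07, adjusted p = 0.0223). Col6a1 differed by -0.02 ± 0.05 (adjusted p = 0.823).

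The calls of Col1a1, Col1a2, Col4a1, Col4a2 and Col8a2 held in every alternative, while the other 6 were each lost in at least 4, among them without T23 alone replicate 1 for all 6, without T23 alone replicate 2 for Col12a1 and Col24a1, without T23 alone replicate 3 for all but Col12a1, without enzalutamide replicate 1 for Col8a1, without replicate 2 for Col16a1 and Col24a1, and without replicate 3 for Col4a5, Col12a1, Col14a1 and Col24a1 (adjusted p 0.0518 to 0.157 where lost). The count of 11 was 5 without T23 alone replicate 1, 6 without T23 alone replicate 3, 7 without enzalutamide replicate 3 and 6 when the fit held these 2 groups alone. The mitochondrial share was 1.88% to 4.06% under enzalutamide against 0.824% to 1.11% in T23 cells alone, and its part in the result was not tested.

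With fibroblasts present, enzalutamide went with the same direction of change in type I and type IV chains. The labels call the fibroblasts human in the enzalutamide group and wild type in its control. If that holds, the drug and the fibroblast source cannot be told apart here. Of the 30 members 3 rose and 4 fell against the wild type co-culture by edgeR, where 3.7% of all genes rose and 3.49% fell. Col1a1 fell by 0.27 (SE 0.05, adjusted p = 0.00216), from 11100, 10740 and 10160 to 9075, 8521 and 8958 CPM, with no overlap. Col1a2 fell by 0.22 (SE 0.05, adjusted p = 0.00561), Col16a1 by 0.32 (SE 0.07, adjusted p = 0.005) and Col5a2, a chain of type V collagen, which regulates fibril diameter, by 0.17 (SE 0.05, adjusted p = 0.0482). Col12a1 rose by 0.26 ± 0.06 (adjusted p = 0.0052), Col4a1 by 0.21 ± 0.06 (adjusted p = 0.0337) and Col4a2 by 0.22 ± 0.06 (adjusted p = 0.0267). Col3a1 differed by 0.08 ± 0.05, Col6a1 by 0.14 ± 0.05 and Col8a2 by -0.37 ± 0.14, with adjusted p of 0.339, 0.104 and 0.124. The median log2 change was -0.03 over the members and 0.00 over all genes.

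None of these 7 calls held once the numbering series of the titles was a term of the fit (adjusted p 0.118 to 0.691). In that fit the log2 changes were -0.23 ± 0.08 (SE) for Col1a1, -0.18 ± 0.07 for Col1a2, -0.29 ± 0.10 for Col16a1, -0.08 ± 0.07 for Col5a2, 0.27 ± 0.08 for Col12a1, 0.25 ± 0.08 for Col4a1 and 0.23 ± 0.09 for Col4a2, so that of the 7 only Col5a2 moved by over 1.5 times and the standard errors were larger. Of the 3 libraries with fibroblasts and enzalutamide 2 belong to the second series, and all wild type co-cultures belong to the first. The count was 4 without wild type replicate 1, without wild type replicate 3 or without fibroblast and enzalutamide replicate 3. Without wild type replicate 1 or 3 or fibroblast and enzalutamide replicate 1 or 3, Col4a1 and Col4a2 did not pass (adjusted p 0.0618 to 0.195), and Col1a2 did not without replicate 2 of the latter (0.0513). Col5a2 was lost in 8 of 13 alternatives, among them without any wild type replicate and without fibroblast and enzalutamide replicate 2 or 3. The interaction tests whether the enzalutamide change differs with and without fibroblasts, and the same difference in fibroblast labels enters it. At an unadjusted p under 0.05 by edgeR there were 3 members (and 5.55% of all genes). After adjustment the interaction was called for 0 of 30 members by edgeR and by DESeq2. In edgeR 0.0147% of all genes were called higher in the interaction and 0.00735% lower. Its log2 value was 0.05 ± 0.08 (SE) for Col1a1, 0.01 ± 0.07 for Col1a2, 0.10 ± 0.06 for Col3a1, -0.15 ± 0.08 for Col4a1, -0.08 ± 0.09 for Col4a2, 0.16 ± 0.07 for Col6a1 and 0.25 ± 0.19 for Col8a2, with adjusted p from 0.86 to 0.999.

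Fibroblasts under enzalutamide changed 1 member against enzalutamide alone by edgeR. Of the 30, 1 rose and 0 fell, where 1.14% of all genes rose and 0.941% fell. Col6a2, a type VI chain, rose from 1101, 1144 and 1118 CPM to 1291, 1405 and 1406 CPM. The groups did not overlap, and the log2 change was 0.29 ± 0.06 (SE, adjusted p = 0.00847). Col1a1 differed by 0.03 ± 0.05, Col1a2 by -0.11 ± 0.05, Col3a1 by 0.11 ± 0.05, Col4a1 by -0.01 ± 0.06, Col4a2 by -0.03 ± 0.06, Col6a1 by 0.15 ± 0.05 and Col8a2 by -0.24 ± 0.15, with adjusted p from 0.144 to 0.953. Col6a2 did not pass, and the count was 0, without fibroblast and enzalutamide replicate 2 (adjusted p 0.0683), in a fit of these 2 groups alone (0.097) or with the numbering series as a term (0.407). Without enzalutamide replicate 2 or 3 the count was 2. With all libraries, 7 members had an unadjusted p under 0.05 by edgeR, as did 13.9% of all genes.

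Of the pairwise comparisons, that of isoliquiritigenin had the most collagen calls, and it also had the most calls over all genes, 26.5%. Against fibroblasts and enzalutamide alone, 4 of 30 members rose and 12 fell by edgeR's quasi-likelihood test, where 12.9% of all genes rose and 13.6% fell. The median log2 change was -0.15 over the members, 10 of them above 0, and 0.00 over all genes. Fibrillar members fell in 5 of 10 and rose in 0, basement membrane members fell in 3 of 3, and network members rose in 2 of 3. FACIT members rose in 2 of 5 and fell in 0, beaded filament members fell in 2 of 4, and Col18a1 and Col7a1 fell in the multiplexin and anchoring fibril classes.

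As a share of all counts the 44 genes took 3.67% ± 0.10 (SD, n = 3) with wild type fibroblasts, 3.92% ± 0.06 with fibroblasts lacking SPARC, 2.99% ± 0.72 under enzalutamide (2.17% in its replicate 2, the library rich in ribosomal RNA), 3.36% ± 0.11 with fibroblasts and enzalutamide and 2.88% ± 0.02 with isoliquiritigenin. Summed over the 44 genes on TMM-scaled libraries the level was 33820, 32180 and 33250 CPM with fibroblasts and enzalutamide and 27560, 27820 and 28060 CPM with isoliquiritigenin added. On this scale the isoliquiritigenin libraries were the lowest of the 18, whereas without TMM scaling replicate 2 of the enzalutamide group was lower. In T23 cells alone the sum was 36520 ± 734 (SD, n = 3), with wild type fibroblasts 35740 ± 1181, with fibroblasts lacking SPARC 38940 ± 905 and under enzalutamide 32880 ± 1380. Fibrillar chains accounted for most of the drop, at 25810 ± 776 with fibroblasts and enzalutamide and 21380 ± 184 with isoliquiritigenin, whereas FACIT chains went from 492 ± 4.39 to 711 ± 30.8.

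**Figure D4:**
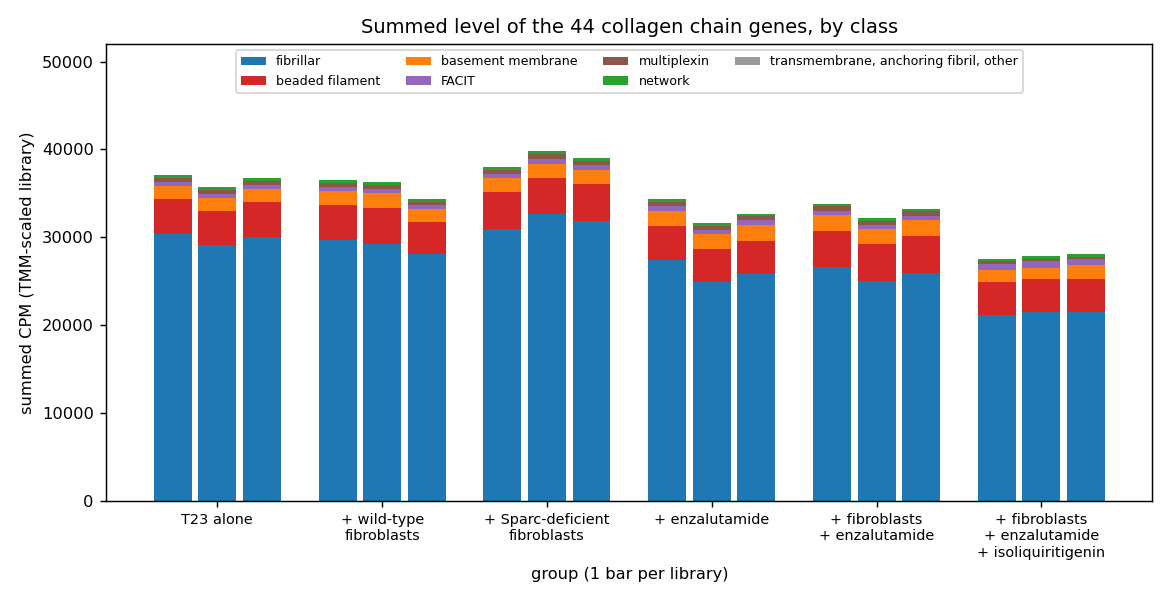
Summed level of the collagen chain genes in each of the 18 libraries, in CPM on TMM-scaled libraries, as bars from 0 stacked by class. The isoliquiritigenin bars are the shortest, at 27560 to 28060, and the SPARC-deficient bars the tallest, at 37980 to 39780.

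Among the fibrillar chains the largest drop was in Col5a3 (chr9:20770050-20815067, minus strand), the minor type V chain. It read 412, 386.5 and 448.8 CPM with fibroblasts and enzalutamide and 189, 112 and 180.9 CPM with isoliquiritigenin. No isoliquiritigenin library reached the lowest of the 15 others, 307.7 CPM. The log2 change was -1.37 ± 0.12 (SE), a 2.59-fold drop (adjusted p = 9.76e-09). Before that, Col5a3 read 314.3, 320.2 and 307.7 CPM in T23 cells alone and 384.4, 430.8 and 368.8 CPM with wild type fibroblasts, which did not overlap, but that log2 difference of 0.33 ± 0.11 did not pass (adjusted p = 0.261). Col5a1, a partner chain in type V collagen, fell by 0.37 (SE 0.05, adjusted p = 1.01e-05), from 997.2 to 1070 CPM down to 781.6 to 815.4 CPM. Col3a1 went from 5366, 5164 and 5169 to 4241, 4064 and 4041 CPM and fell by 0.35 (SE 0.05, adjusted p = 4.06e-06). Col1a1 went from 9075, 8521 and 8958 to 6832, 7193 and 7163 CPM and fell by 0.33 (SE 0.05, adjusted p = 6.3e-05), and Col1a2 fell by 0.16 (SE 0.05, adjusted p = 0.0191). For each of these genes the 2 groups did not overlap.

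The basement membrane chains and 1 of the 2 multiplexins fell as well, the other, Col15a1, differing by -0.19 ± 0.50 (SE) with overlapping libraries (adjusted p = 0.823). Col18a1 (chr10:77052178-77166548, minus strand), whose C-terminal fragment is endostatin, read 475.2, 459 and 528.3 CPM with fibroblasts and enzalutamide and 246.3, 221.1 and 268.9 CPM with isoliquiritigenin. The 15 libraries without isoliquiritigenin lay between 430.6 and 528.3 CPM. The log2 change was -0.99 ± 0.07 (SE), a 1.99-fold drop (adjusted p = 6.75e-10), and Col18a1 was called in none of the other 6 pairwise comparisons. Col4a1 went from 1027, 946.5 and 1021 to 734.5, 711.2 and 819.1 CPM, a change of -0.40 ± 0.06 (adjusted p = 1.79e-05), and Col4a2 fell by 0.17 (SE 0.06, adjusted p = 0.0447). Col6a3, the long chain of type VI, fell by 0.47 (SE 0.06, adjusted p = 2.15e-06) from 784.1 to 854.2 CPM down to 552.5 to 608.5 CPM, while Col6a1 differed by -0.11 ± 0.05 (adjusted p = 0.097). Col6a4 fell by 1.11 (SE 0.38, adjusted p = 0.0321) on 5 to 26 counts a library, and Col7a1, the chain that anchors epithelia to the dermis, by 0.68 (SE 0.22, adjusted p = 0.0263) on 30 to 52 counts.

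Some network chains and FACITs rose. Col8a2 read 5.46, 4.75 and 6.15 CPM with fibroblasts and enzalutamide and 13.1, 15.4 and 13.1 CPM with isoliquiritigenin, above every other library of the 18, where the highest was 11.5 CPM. The log2 change was 1.34 ± 0.13 (SE), 2.53-fold (adjusted p = 5.11e-08). Col10a1 read 3.27, 2.80 and 3.88 CPM against 7.17, 9.70 and 7.75 CPM, again above all other libraries, and rose by 1.30 ± 0.20 (adjusted p = 3.63e-05). Col12a1 went from 325.5, 329.6 and 319.8 to 519.4, 548.2 and 504.5 CPM and rose by 0.69 ± 0.06 (adjusted p = 7.29e-09). Col14a1 went from 1.68, 1.25 and 0.678 to 2.33, 2.53 and 2.99 CPM, which did not overlap, and rose by 1.11 ± 0.28 (adjusted p = 0.00383). Col8a2 and Col10a1, lowest with SPARC-deficient fibroblasts, were thus highest with isoliquiritigenin.

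Of the 16 calls, 11 held in every alternative, among them Col5a3, Col18a1, Col3a1, Col8a2, Col10a1 and Col12a1. Lost in at least 1 were Col4a5 (without fibroblast and enzalutamide replicate 1; named after its values were seen), Col1a2 (without fibroblast and enzalutamide replicate 1 or 3 or isoliquiritigenin replicate 1), Col4a2 (the same and isoliquiritigenin replicate 2), Col6a4 (without fibroblast and enzalutamide replicate 1 or 3 or isoliquiritigenin replicate 2) and Col7a1 (without fibroblast and enzalutamide replicate 1 or 3 or any isoliquiritigenin replicate), with adjusted p from 0.0501 to 0.166 where lost. All 5 were also lost with the numbering series as a term (adjusted p 0.0513 to 0.0971), where the 3 isoliquiritigenin libraries and 2 of their 3 controls are in the second series. Col4a2 was lost as well with no filter on low counts (0.0554) and with the replicate block (0.0544). Other markers moved in the same libraries. The summed level of the 12 fibroblast markers was 11700 to 13000 CPM with isoliquiritigenin against 16000 to 16700 CPM with fibroblasts and enzalutamide. Of 11 tested 6 fell and 3 rose, with Lum at no more than 0.148 CPM throughout. Most of the sum was Fn1, at a mean of 7250 against 10000 CPM, and Vim, at 2080 against 3370 CPM. Pdgfra, Pdgfrb, Prrx1 and Twist2 had higher means with isoliquiritigenin, Pdgfra at 1380 against 1130 CPM. These were named after their values were seen. Of the 9 luminal markers 4 were tested, of which 1 rose and 1 fell, with Pbsn at 0. The 6 smooth muscle markers, nearly all Acta2, summed to 410 to 536 CPM against 572 to 642 CPM, 1 of 5 tested falling. The 5 endothelial markers summed to 6.52 to 6.71 CPM against 4.02 to 4.5 CPM, 2 of 3 tested rising. The cartilage and bone markers, 8 in all, summed to 169 to 173 CPM against 150 to 166 CPM, with Ibsp and Matn1 at 0. The mitochondrial share was 2.80% to 3.77% against 1.55% to 2.71%. The part of any of these in the collagen changes was not tested.

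Genes that fold, modify, cut and cross-link collagen are a separate list of 37 symbols, of which 36 matched a gene and 34 were tested. With SPARC-deficient against wild type fibroblasts 10 of the 34 rose and 1 fell by edgeR, where 6.72% of all genes rose and 4.79% fell. These included the cross-linking enzymes Loxl3, up by 0.57 ± 0.05 (SE, adjusted p = 1.2e-08), and Lox, up by 0.60 ± 0.07 (adjusted p = 7.2e-06), the prolyl hydroxylase subunit P4ha2, up by 0.66 ± 0.08 (adjusted p = 1.07e-05), and the lysyl hydroxylase Plod1, up by 0.47 ± 0.06 (adjusted p = 2.43e-05). Under enzalutamide without fibroblasts 2 rose and 9 fell, where 6.84% of all genes rose and 5.19% fell, among them Loxl4 by 0.28 (SE 0.05, adjusted p = 0.000861) and Plod1 by 0.35 (SE 0.07, adjusted p = 0.000969). With fibroblasts 0 rose and 7 fell under enzalutamide, where 3.7% of all genes rose and 3.49% fell, led by P4ha2, which fell by 0.57 (SE 0.09, adjusted p = 0.000112).

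With isoliquiritigenin 6 of the 34 rose and 8 fell, where 12.9% of all genes rose and 13.6% fell. Adamts14, a procollagen N-proteinase, fell by 0.91 (SE 0.07, adjusted p = 1.16e-09), Loxl4 by 0.69 (SE 0.05, adjusted p = 2.05e-09), Plod1 by 0.64 (SE 0.07, adjusted p = 1.36e-07) and Loxl2 by 0.61 (SE 0.07, adjusted p = 6.17e-07). With wild type fibroblasts against T23 cells alone 0 rose and 2 fell by edgeR, where 0.257% of all genes rose and 0.257% fell. These were Lox, by 0.34 (SE 0.07, adjusted p = 0.0313), and P4ha3, by 0.35 (SE 0.08, adjusted p = 0.037). Of the list, 13 rose and 1 fell from T23 cells alone to the SPARC-deficient co-cultures, where 6.1% of all genes rose and 3.65% fell. With fibroblasts under enzalutamide 1 rose and 1 fell, where 1.14% of all genes rose and 0.941% fell. The interaction gave 0 of either, where 0.0147% of all genes were called higher and 0.00735% lower. Of 11 collagen receptors 9 were tested. With SPARC-deficient against wild type fibroblasts 1 rose and 0 fell by edgeR, where 6.72% of all genes rose and 4.79% fell. It was Itga11, the integrin chain that binds fibrillar collagen on fibroblasts, up by 0.47 ± 0.05 (adjusted p = 9.37e-07). Under enzalutamide without fibroblasts 1 receptor rose and 2 fell, where 6.84% of all genes rose and 5.19% fell. Itga11 was among those that fell, by 0.215 (SE 0.05, adjusted p = 0.00761). From T23 cells alone to the SPARC-deficient co-cultures 2 receptors rose and 0 fell, and with isoliquiritigenin 0 rose and 1 fell.

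Some members share annotated exon bases with other genes, where the counts are less certain. Col3a1 shares 141 bases on its own strand with Gm47302, and Col5a1, Col6a4 and Col9a3 share 212, 289 and 234 bases with genes on the opposite strand. Col10a1 shares 18 bases with Nt5dc1 on the opposite strand. Col7a1 shares 36 bases with the microRNA gene Mir711 on its own strand.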

How the data were processed

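Total RNA from 18 libraries, 3 in each of 6 groups, was poly(A)-selected and sequenced as stranded mRNA libraries on an Illumina NextSeq, per the labels. The deposited files hold raw read counts per gene. The submitters' processing notes name the aligner STAR 2.6.1d, the counter featureCounts 2.0, the trimmer cutadapt 2.9, bcl2fastq 2.20.0.422, DESeq2 and, for read quality, FastQC 0.11.9. They name the genome build GRCm38. The annotation used for counting and its strand setting were not given in the sources used here. Gene IDs were paired with symbols through GENCODE M21 (55227 of 55487), and the 260 without a symbol held 0.00552% of counts.

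All 18 libraries entered 1 model in R 4.3.3, using edgeR 4.0.16 on limma 3.58.1, with TMM scaling, filterByExpr at a minimum count of 10 (13600 genes) and the quasi-likelihood F test with 12 residual degrees of freedom. The biological coefficient of variation was 7.03%. P-values were adjusted by Benjamini-Hochberg over all 13600 genes and called under 0.05. The fit was tested on simulated data. Levels of single genes are CPM on TMM-scaled libraries, and genes were ranked by level per kb of the union of annotated exons. Shares of counts and sums over genes or classes were not corrected for length. The shares of all counts used unscaled library totals. Counts of 0 allow 3 counts, which covers counting error only.

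In each comparison Col1a1, Col1a2, Col3a1, Col4a1, Col4a2, Col6a1 and Col8a2 were named, with up to 8 called members in each direction. Col5a3, Col6a5, Col8a1 and Col11a1 were in addition given where not called, after their values were seen. The members and gene lists were chosen with earlier results of these data known. The alternatives were no filter, RLE in place of TMM scaling, DESeq2 1.42.0, a fit of only the groups compared, a replicate block, a term for the numbering series, leaving out each library, TMM-scaled in place of unscaled libraries for the sums and the longest transcript for levels. Same-numbered libraries did not deviate together (correlations -0.144 to 0.0982 over 15 pairs of groups), so the numbers were not taken as pairs. A few marker genes are not reported here.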

Additional observations from a re-analysis of the deposited data

How the results depend on the processing

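Of 48 calls of a collagen chain gene in a pairwise comparison, 23 held in every alternative run and 25 were lost in at least 1. Over 611 alternative values 508 kept sign and side, 103 lost the call and 0 reversed, and 22 pairs not called became called in some alternative. The counts that moved by over 1.5 times were these. With wild type fibroblasts against T23 cells alone, 0 became 3 with no filter on low counts, 1 with DESeq2 and 3 in a fit of the 2 groups. Under enzalutamide without fibroblasts 11 became 6 in a fit of the 2 groups, and with fibroblasts 7 became 0 with the numbering series as a term. Over all alternatives of that comparison the log2 change stayed at -0.303 to -0.233 for Col1a1, -0.381 to -0.285 for Col16a1 and 0.237 to 0.287 for Col12a1. For fibroblasts under enzalutamide, 1 became 3 with no filter, 2 with DESeq2, 0 in a fit of the 2 groups and 0 with the numbering series. The cause was not tested. Counts of members under the alternatives are given without the share of all genes called in the same setting. A moved count can therefore not be told apart from a change in calls over all genes. Leaving out 1 library gave 3 to 11 calls for SPARC-deficient against wild type fibroblasts, 5 to 10 for enzalutamide without fibroblasts, 4 to 8 with fibroblasts and 0 to 2 for fibroblasts under enzalutamide. With the replicate block, whose numbers do not pair the libraries, the counts were 0, 6, 7, 10, 6, 1 and 15 for the 7 pairwise comparisons in the order of the report, and 0 for the interaction. Levels per kb moved by over 1 SD for 20 members with the longest transcript. Members with few counts, such as Col24a1 at 3 to 18 and Col6a4 at 5 to 49 a library, are limited by depth.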
